A study of Mus musculus with 44 samples.

Results

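Translation initiation and elongation factors were examined in 44 mouse embryos at the two-cell stage, with 1 RNA-seq library per embryo. The genes were chosen by name: every probe of the deposited table whose name starts with Eif1 to Eif6 or with Eef1 or Eef2, leaving out Eif4e1b and copies named as pseudogenes. This gave 68 of 35269 probes. They comprise 14 genes named for subunits of eIF3, 12 of the eIF4 group, 6 of the eIF2 group, 5 of eIF2B, 4 eIF2 kinases, 5 of the eIF1 and eIF1A group, 5 of the eIF5, eIF5A, eIF5B and eIF6 group, 6 of the eEF1 group, Eef2, 3 genes for eIF4E-binding proteins, 6 genes for methyltransferases and the kinase that modify elongation factors, and Eif2c5. The GENCODE annotation of GRCm38 holds all 68, of which 67 are protein-coding and Eif2c5 is a long intergenic non-coding RNA. The rule uses gene names alone.

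Initiation of translation joins a small ribosomal subunit, the initiator tRNA and an mRNA. The trimeric GTPase eIF2 brings the initiator tRNA, eIF2B recharges eIF2 with GTP, and eIF3 is the large scaffold on the small subunit. The cap-binding protein eIF4E, the scaffold eIF4G and the helicase eIF4A recruit the mRNA. The proteins eIF1, eIF1A and eIF5 act in the choice of the start codon, and eIF5B helps the large subunit to join. During elongation eEF1A delivers the aminoacyl-tRNA, the eEF1B subunits recharge eEF1A, and eEF2 moves the ribosome along. The oocyte stores mRNAs that are translated after fertilisation, and the mouse embryo activates its own genome at the two-cell stage.

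Many mRNAs for the translation machinery start with a pyrimidine tract at the cap, through which their translation is controlled. The 30 bases around the RefSeq start (GRCm38.p6, 10 bases before it and 20 from it, read 5′ to 3′ on the transcribed strand) are shown for genes that the results turn on, including the X- and Y-linked pair for eIF2 gamma. Capitals mark a C followed by at least 4 pyrimidines that begins within 5 bases on either side of the start, searched on the transcribed strand alone.
Eif3g: acccgggctgggagctgcgtggagttaaga
Eif3l: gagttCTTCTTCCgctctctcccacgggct
Eif3d: agggccatttacgacagcgctggtcgccgt
Eif5b: ctgggttcccacctggccggcggctctact
Eef1a1: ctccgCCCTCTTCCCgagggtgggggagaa
Eif2s3x: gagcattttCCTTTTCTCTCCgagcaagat
Eif2s3y: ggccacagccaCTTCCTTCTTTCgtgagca
The windows lie at chr9:20898571-20898600 (reverse strand) for Eif3g, chr15:79075213-79075242 (forward) for Eif3l, chr15:77970805-77970834 (reverse) for Eif3d, chr1:37998000-37998029 (forward) for Eif5b, chr9:78481705-78481734 (reverse) for Eef1a1, chrX:94212632-94212661 (reverse) for Eif2s3x and chrY:1010585-1010614 (forward) for Eif2s3y. Of the 68 members, 53 had a promoter entry, and 15 of these (28.3%) held such a tract, against 5718 of 27025 genes in the table (21.2%). Of the genes shown, Eif3l, Eef1a1, Eif2s3x and Eif2s3y held it, and Eif3g, Eif3d and Eif5b did not. In Eif3l and Eef1a1 the marked stretch begins 5 bases before the start, so part of it lies upstream of the annotated transcript. A mark thus does not show that the mRNA starts with a tract. Among the members called lower in HET1 litter 2 (described further on), 3 of the 15 with an entry held it (20.0%), against 11 of 36 other members tested (30.6%).

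The embryos came from natural matings of 3 kinds, with 2 litters of each. Control Dppa2/4+/+ females mated with Dppa2/4+/+ males gave 14 Dppa2/4+/+ embryos (WT). Dppa2/4 m- females, in which floxed Dppa2 and Dppa4 had been deleted in the oocyte by Zp3-Cre, gave 15 Dppa2/4+/- embryos (HET1) when mated with Dppa2/4+/+ males (cKO x WT). The same type of female mated with Dppa2/4+/- males (cKO x HET) gave 5 Dppa2/4+/- embryos (HET2) and 10 Dppa2/4-/- embryos (HOM). All embryos except WT therefore lacked a maternal supply of Dppa2 and Dppa4, a pair of chromatin-binding proteins expressed in early embryos. The study asked whether activation of the embryonic genome proceeds without them. The genotype of the HET2 and HOM embryos was assigned in the study from their own Dppa2 and Dppa4 transcripts, so these transcripts cannot check it. Dppa2 had a mean of 8.46 ± 0.55 log2 RPM in WT, 6.47 ± 1.02 in HET1, 6.42 ± 1.54 in HET2 and 1.89 ± 0.06 in HOM (0 to 7 reads), and Dppa4 had 7.13 ± 0.56, 5.50 ± 1.19, 5.20 ± 0.45 and 1.88 ± 0.05 (0 to 5 reads in HOM). The litters held 10 and 4 WT embryos, 7 and 8 HET1 embryos, 4 and 1 HET2 embryos and 3 and 7 HOM embryos. Only HET2 and HOM embryos were littermates. Each comparison with WT thus rests on 2 litters of each mating type, and differences between litters enter it.

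Total reads per embryo ranged from 247667 to 3163026, with medians of 1770010 in WT, 528166 in HET1, 1108889 in HET2 and 803369 in HOM, and 8 embryos had fewer than 500000. Values are log2 RPM (reads-per-million of all reads of the embryo). Since the deposited value of a gene without reads depends on the depth of its embryo, all values under 1.86, the highest such value, were set to 1.86, and 3 reads were taken as the floor for detection. The label of the stage was checked with marker genes. All 10 oocyte and all 6 two-cell markers were read in every group, the 10 cumulus cell markers summed to at most 29.8 RPM in any embryo, and the 6 blastocyst markers had group medians between 59.5 and 110.5 RPM. Differences were tested with limma across 13338 genes, and a difference was called at an adjusted p under 0.05. In each embryo a level is a share of the reads, so that more of a transcript and less of all others cannot be told apart.

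Transcripts of the initiation pathway were plentiful in the two-cell embryo. All but 4 members passed the filter on low values (64 of 68, against 13338 of all 35269 probes). At least 1 read was found in every embryo for 44 members, against 4343 of all probes, and at least 3 reads for 38 members. Together the members took a median of 1.23% of the probe reads in WT, 1.07% in HET1, 0.998% in HET2 and 1.13% in HOM. Per kb of exon, which is the scale on which genes can be compared, Eif1 stood highest with a mean level of 7.62 ± 0.31 log2 RPKM (SD, n = 44), followed by Eif5a (7.26 ± 0.93), Eif5 (7.11 ± 0.72), Eif4e (6.83 ± 0.28), Eif4g2 (6.63 ± 0.44) and Eif6 (6.37 ± 1.1). Each of these genes differed from the next in the order by less than the larger of their SDs over embryos. The gene for the cap-binding protein eIF4E was also the steadiest member, with a SD of 0.28 against a median of 0.95 over the 64 members tested. The most variable were the eIF3 subunit genes Eif3g (SD 1.60) and Eif3e (SD 1.58).

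**Figure D1:**
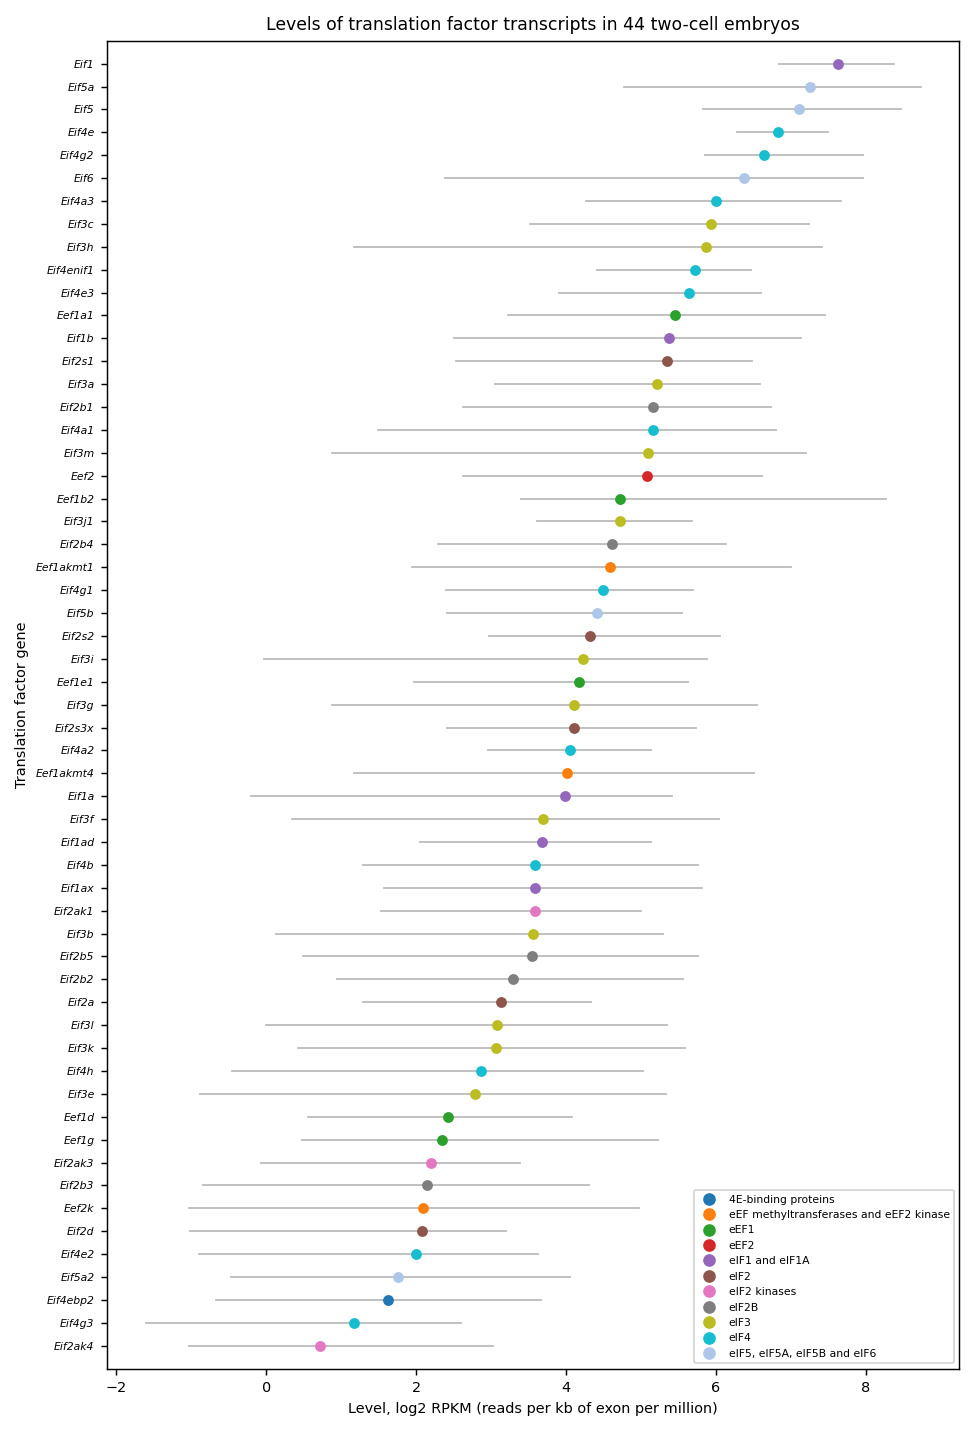
Mean level in log2 RPKM (RPM per kb of exon, x axis) of the 57 translation factor genes with reads in at least 40 of 44 embryos, coloured by role. Grey lines run from the lowest to the highest embryo. Eif1 is at the top at 7.62 and the lowest gene shown has a mean of 0.72.

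Related genes for the same factor were often, but not always, present at unequal levels. Eif1 exceeded its homologue Eif1b (5.38 ± 0.98 log2 RPKM), and Eif5a exceeded Eif5a2 (1.75 ± 1.51). For the helicase eIF4A, Eif4a1 had a level of 5.16 ± 0.85 and Eif4a2 of 4.05 ± 0.61 log2 RPKM. Among the genes for cap-binding proteins, Eif4e was followed by Eif4e3 (5.64 ± 0.65) and Eif4e2 (2.00 ± 1.11), and among those for scaffolds Eif4g2 (6.63 ± 0.44) stood above Eif4g1 (4.50 ± 0.81) and Eif4g3 (1.18 ± 1.05). The autosomal Eif1a (3.99 ± 0.96) and the X-linked Eif1ax (3.59 ± 0.81) differed by less than their SDs. Lengths are those of all annotated exons, so a gene with long alternative ends is understated.

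Eef1a1, the gene for the widely used form of eEF1A, was read in all 44 embryos, with 21 to 403 reads. Eef1a2, its counterpart of muscle and neurons, had 1 read in a single HET1 embryo and none in the other 43. The other members that did not pass the filter were Eef1akmt3, Eif4ebp3 and Eif2c5, the last without a read in any embryo. Eif4ebp3, for a binding protein that keeps eIF4E from the cap, had at most 12 reads, and 64.2% of the 75-base words of its exons also occur in another annotated gene. Of its relatives, Eif4ebp1 had at least 1 read in 39 embryos (mean level 1.95 ± 1.2 log2 RPKM) and Eif4ebp2 in all 44 (1.62 ± 1.30), and the levels differed by less than their SDs. Among the kinases that inactivate eIF2, Eif2ak1, which responds to haem, had the highest level per kb (3.58 ± 0.81 log2 RPKM), with group means from 5.74 ± 0.67 log2 RPM in WT to 6.69 ± 0.76 in HOM. Eif2ak3, the kinase of the endoplasmic reticulum stress response, had 2.20 ± 0.87 log2 RPKM and group means between 4.67 and 4.94 log2 RPM. Eif2ak4, the sensor of amino acid shortage, had 0.72 ± 1.14 log2 RPKM and group means between 3.24 and 3.96 log2 RPM. Eif2ak2, the kinase activated by double-stranded RNA, was without reads in 34 of 44 embryos.

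The gamma subunit of eIF2 is encoded by a gene on the X chromosome, Eif2s3x (94188707 to 94212862, reverse strand, GRCm38), and a gene on the Y chromosome, Eif2s3y (1010543 to 1028847, forward strand). Eif2s3x was read in every embryo, with 11 to 345 reads. Eif2s3y had no read in 19 embryos, 1 or 2 reads in 4 and at least 3 in 21, with a maximum of 217. Embryos with at least 3 Eif2s3y reads numbered 6 of 14 WT, 9 of 15 HET1, 2 of 5 HET2 and 4 of 10 HOM. All 21 of them also had reads of other Y-linked genes (Ddx3y, Kdm5d or Uty), as did 8 of the embryos with fewer. Each group thus held embryos with and without Eif2s3y reads, and its mean level of Eif2s3y depends on how many of each it holds.

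**Figure D2:**
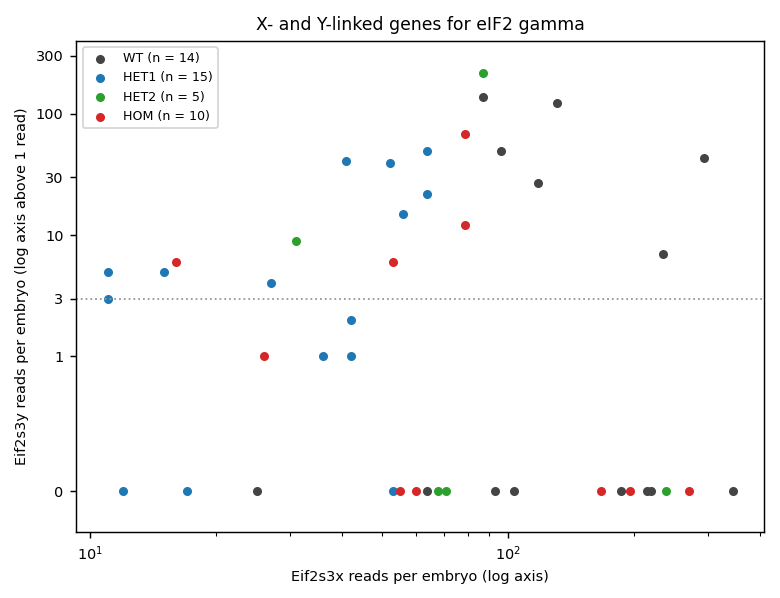
Reads of Eif2s3x (x axis, log scale) and Eif2s3y (y axis, log scale above 1 read) in each of the 44 embryos, coloured by group. The dotted line marks 3 reads; 21 embryos lie on or above it and 19 lie at 0.

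Loss of both the maternal and the embryonic Dppa2 and Dppa4 was examined by comparing HOM with WT. No member was called (0 of 64, against 0.045% of all genes tested), and the median difference over the members was 0.30 log2 RPM, against 0.17 over all genes. The members' median turned to -0.20 without HOM litter 2 and was 0.50 without HOM litter 1. With embryos centred on their own median it was 0.00, and 0.02 over all genes. An unadjusted p under 0.05 was found for 15 of 64 members, against 16.5% of all genes. limma voom on the recovered reads also called 0.

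The 3 members with the smallest p in this comparison were Eif5, Eif4g2 and Eif2ak1. Eif5, for the factor that triggers GTP hydrolysis by eIF2, had a lowest, median and highest level of 9.42, 10.50 and 11.23 log2 RPM in WT and of 8.72, 9.65 and 10.72 in HOM. The difference was -0.79 ± 0.24 (SE; limma, adjusted p = 0.110), and 9 of 10 HOM embryos lay below the WT mean. Eif4g2, for a scaffold related to eIF4G, ran from 9.79 over 10.18 to 11.31 log2 RPM in WT and from 9.20 over 9.70 to 10.18 in HOM (-0.58 ± 0.18, adjusted p = 0.117), with all 10 HOM embryos below the WT mean. The kinase gene Eif2ak1 differed by 0.95 ± 0.31 (adjusted p = 0.134). The ranges of the 2 groups overlapped for all 3 genes, and none of these differences passed the test.

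Embryos of WT fathers without the maternal supply were examined by comparing HET1 with WT. Lower in HET1 embryos were 2 of 6 genes of the eIF2 group, 4 of 14 for eIF3, and Eif5 and Eif5b, and higher were 1 gene for eIF3, 1 of 5 for eIF2B, and Eif5a. None of these calls remained when litter was a random term. In all, 11 of 64 members were called (17.2%, against 6.51% of all genes), 8 of them lower (2.83% of all genes) and 3 higher (3.67%). limma voom, and a fit with no filter on low values, each called 9 lower and 0 higher (7.47% and 3.71% of all genes called), so that the 3 higher calls were lost in both. The median difference was -0.14 log2 RPM over the members and 0.10 over all genes. These counts rested on 2 litters. Without WT litter 1 a single member, Eif3i, was called, against 136 of 13338 genes (1.02%). Without HET1 litter 2 (or without it and WT litter 2) 0 members were called, although 20 of 64 members, and 2482 of 13338 genes, had an unadjusted p under 0.05 without HET1 litter 2, and the median of the members was then 0.36, against 0.17 over all genes. When litter was a random term, and when litter means were the replicates, 0 members and 0 of 13338 genes were called, with 13 and 2 members, and 1010 and 272 genes, at an unadjusted p under 0.05. Markers moved here too, with 1 of 10 oocyte and 2 of 6 two-cell markers higher in HET1 and 0 lower, and median depth was lower in HET1 than in WT; the part of either in the result was not tested.

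Eif5 (chromosome 12, 111538016 to 111546752, forward strand, GRCm38) had the smallest p. Its level ran from 9.42 over a median of 10.50 to 11.23 log2 RPM in WT and from 8.60 over 9.39 to 10.31 in HET1. All 15 HET1 embryos lay below the WT mean, although the ranges overlapped, and the difference was -1.07 ± 0.21 (SE, adjusted p = 0.00179), which is 0.477 of the WT level. The 2 HET1 litters were alike in Eif5, with means of 9.56 ± 0.54 (SD, n = 7) and 9.33 ± 0.61 (n = 8). Without HET1 litter 2 the difference was -0.94 (adjusted p = 0.086).

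The gene for the alpha subunit of eIF2, Eif2s1 (chromosome 12, 78861819 to 78887010, forward strand), ran from 6.55 over 8.38 to 8.79 log2 RPM in WT and from 4.83 over 7.22 to 8.30 in HET1. The difference was -1.02 ± 0.25 (adjusted p = 0.00872), with 14 of 15 HET1 embryos below the WT mean. Eif2s2, for the beta subunit, differed by -0.75 ± 0.21 (adjusted p = 0.0203). Eif2s3x, for the gamma subunit, was not called and differed by -0.82. Eif5b, for the factor that joins the large subunit, differed by -0.999 ± 0.25 (adjusted p = 0.00843), with 13 of 15 HET1 embryos below the WT mean. Without HET1 litter 2 the differences were -0.46 for Eif2s1, -0.43 for Eif2s2 and -0.23 for Eif5b. Part of its exons overlaps Rev1 on the other strand, and the quantification ignored strand.

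Of the 14 genes for eIF3 subunits, 4 were lower in HET1 and 1 was higher, against 2.83% and 3.67% of all genes, and none of these calls remained with litter as a random term. Eif3a, for the largest subunit, ran from 7.997 over 8.96 to 9.71 log2 RPM in WT and from 6.18 over 7.99 to 9.15 in HET1 (-1.03 ± 0.25, adjusted p = 0.00691). Eif3m ran from 6.37 over 7.36 to 8.58 in WT and from 2.25 over 6.10 to 7.52 in HET1 (-1.53 ± 0.36, adjusted p = 0.00638). Eif3e, from 3.61 over 6.38 to 8.08 in WT and from 1.86 over 4.96 to 6.81 in HET1, had the most negative called difference (-1.80 ± 0.48, adjusted p = 0.0158). In all 3 genes the HET1 embryos reached lower than any WT embryo, while the upper parts of the ranges overlapped. Eif3j1, for a loosely bound subunit, was lower by a smaller amount (-0.80 ± 0.21, adjusted p = 0.0131), and its value is uncertain, since 47.3% of its 75-base words are shared, most of them with Eif3j2. Without HET1 litter 2 the differences were -0.41 for Eif3a, -0.77 for Eif3m, -0.69 for Eif3e and -0.73 for Eif3j1.

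The 3 members higher in HET1 were Eif3i, Eif2b1 and Eif5a. Eif3i, for an eIF3 subunit built of WD repeats, ran from 1.86 over 5.51 to 7.12 log2 RPM in WT and from 5.45 over 6.76 to 7.77 in HET1 (1.16 ± 0.35, adjusted p = 0.0322), and all 15 HET1 embryos lay above the WT mean. Eif2b1, for the alpha subunit of eIF2B, differed by 0.90 ± 0.27 (adjusted p = 0.0355). Eif5a, for the factor that helps stalled ribosomes and carries hypusine, differed by 0.91 ± 0.30 (adjusted p = 0.0499), with 13 of 15 HET1 embryos above the WT mean. Without HET1 litter 2 these differences were 1.02, 0.74 and 0.85, with adjusted p of 0.201, 0.225 and 0.194.

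**Figure D3:**
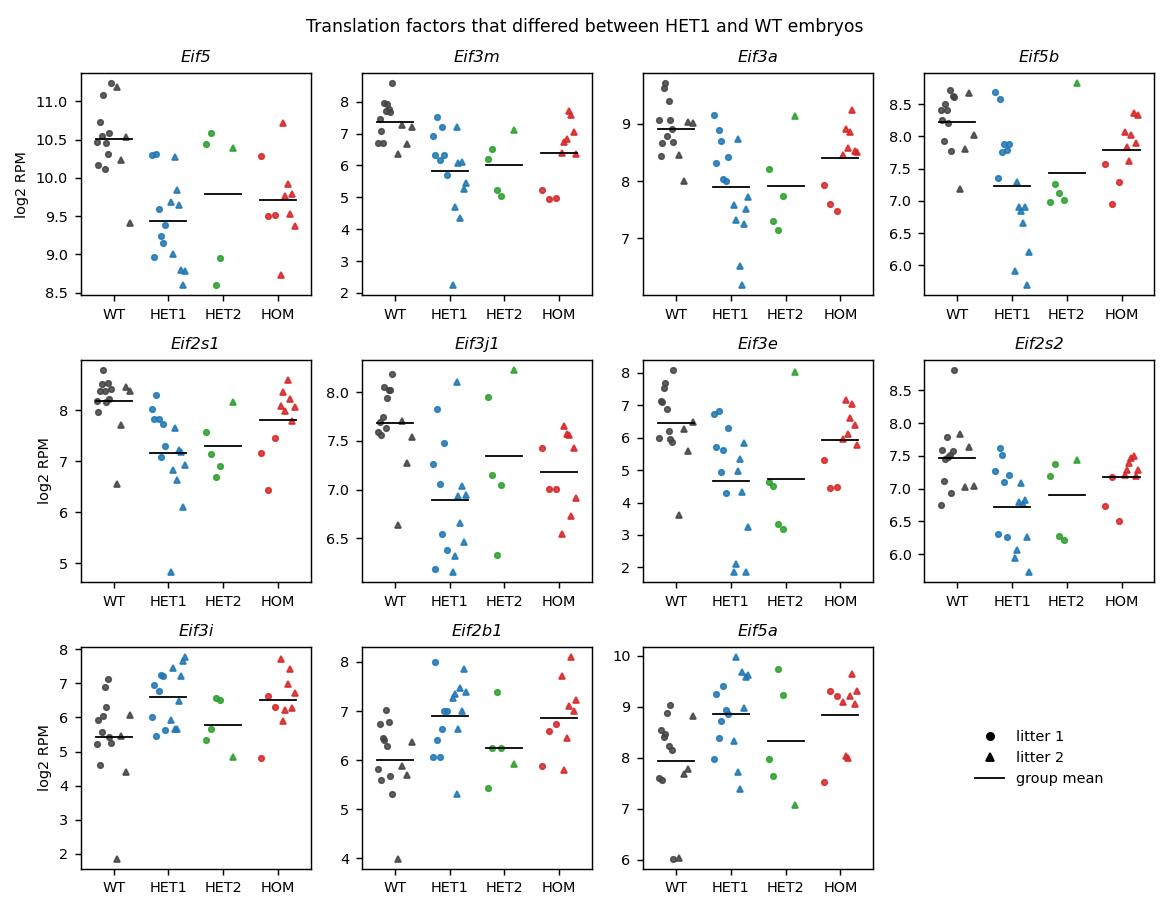
Levels in log2 RPM (y axis) of the 11 translation factors called between HET1 and WT, in each embryo of the 4 groups (x axis). Circles are embryos of litter 1, triangles those of litter 2, and lines are group means; in Eif5b the HET1 embryos of litter 2 lie at or below 7.29 and those of litter 1 at or above 7.36.

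Heterozygous embryos of the other cross, HET2, were compared with WT, and no member was called (0 of 64, against 0.0375% of all genes, 0.0225% higher and 0.015% lower). The median difference was -0.34 log2 RPM over the members and -0.01 over all genes, and 45 of 64 members had a lower mean in HET2. Without WT litter 1 the members' median was 0.04. An unadjusted p under 0.05 was found for 9 members, against 9.01% of all genes, and limma voom called 0. The 3 members with the smallest p were Eif3a, Eif3m and Eif3e. Eif3a stood at 8.20, 7.30, 7.15 and 7.74 log2 RPM in the 4 HET2 embryos of litter 1 and at 9.13 in the embryo of litter 2 (-1.01 ± 0.34 against WT, adjusted p = 0.356). Eif3m stood at 6.20, 6.52, 5.22 and 5.03, and at 7.11 in the embryo of litter 2 (-1.35 ± 0.50, adjusted p = 0.426). Eif3e stood at 4.63, 4.49, 3.33 and 3.18, and at 8.01 in the embryo of litter 2 (-1.73 ± 0.67, adjusted p = 0.443). In all 3 genes the embryo of litter 2 was the highest of the group, and without the 4 embryos of litter 1 the differences for Eif3a and Eif3e turned positive, 0.21 and 1.56.

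Since HET2 and HOM embryos were littermates, they were compared within litters, so that differences between litters do not enter. Litter 1 held 4 HET2 and 3 HOM embryos, and litter 2 held 1 and 7. Littermates can differ in more than genotype, such as depth, which was not in the model. No member was called (0 of 64, against 0.015% of all genes). The median difference of HOM over HET2 was 0.28 log2 RPM over the members and 0.18 over all genes, and with embryos centred on their median -0.02 and 0.03. Without HET2 embryo 5, the single HET2 embryo of litter 2, the medians were 0.07 and 0.08. An unadjusted p under 0.05 was found for 3 members, against 4.81% of all genes, and limma voom called 0. With array weights and without litter in the model the calls were also 0, but 18 and 13 members had an unadjusted p under 0.05, as did 2212 and 1674 of 13338 genes. The members' medians were then 0.49 and 0.56, and those of all genes 0.26 and 0.16. The 3 with litter in the model were Eif3j2 (-0.52 ± 0.18) and the genes for the beta and delta subunits of eIF2B, Eif2b2 (1.46 ± 0.63) and Eif2b4 (1.16 ± 0.53), each with an adjusted p of 0.853. Eif2b2 stood at 2.61, 3.55, 4.42, 5.03 and 1.86 log2 RPM in the 5 HET2 embryos, and from 3.47 over 4.65 to 6.12 in HOM. Eif3j2 shares 87.4% of its 75-base words with other genes, foremost Eif3j1.

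The 2 litters of each mating type were compared as well. The WT litters, and likewise the HET1 litters, hold a single genotype, whereas the cKO x HET litters differ in their numbers of HET2 and HOM embryos. Between the 2 WT litters no member was called (0 of 64, against 1.75% of all genes, 1.25% higher and 0.502% lower). The median difference of litter 2 over litter 1 was -0.51 log2 RPM over the members and -0.04 over all genes, and an unadjusted p under 0.05 was found for 16 members, against 14.7% of all genes. limma voom called 4, against 674 of all 13338 genes (5.05%). Without WT embryo 11 the members' median was -0.25, and 2 members and 1009 genes had an unadjusted p under 0.05. All 14 genes for eIF3 subunits had a lower mean in litter 2, with a median difference of -0.62. The 10 cumulus cell markers summed to 0 to 17.7 RPM in WT litter 1 (median 1.56, 7 markers without reads) and to 3.54 to 29.8 in litter 2 (median 19.9, 5 without reads), and their part in the result was not tested. The smallest p belonged to Eif5a2 (-2.42 ± 0.78, adjusted p = 0.0988), Eif2s3x (-1.36 ± 0.45, adjusted p = 0.105) and Eef1b2, for a subunit of the exchange factor of eEF1A (1.24 ± 0.42, adjusted p = 0.115).

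Many members were lower in HET1 litter 2 than in HET1 litter 1, among them 8 of 14 genes for eIF3 and 3 of 5 tested genes of the eEF1 group. In litter 2, 21 of 64 members were lower and 1 was higher than in litter 1, against 15.4% of all genes lower, 6.46% higher and 21.9% called in either direction. The median difference was -0.87 log2 RPM over the members and -0.18 over all genes, and 51 of 64 members had a lower mean in litter 2. With embryos centred on their median 16 members were lower and 2 higher (20.6% of all genes called), including 17 of the 22, and the members' median was -0.52. limma voom called 19 lower and 0 higher (16.3% of all genes), also including 17 of the 22. Called lower were 8 of 14 genes for eIF3 subunits, 3 of 5 tested genes of the eEF1 group, 3 of 12 of the eIF4 group, 2 of 5 of the eIF5, eIF5A, eIF5B and eIF6 group, 2 of 5 tested methyltransferase and kinase genes, Eef2, Eif2s1 of the eIF2 group and Eif2b3 of eIF2B.

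The 14 genes for eIF3 had the lowest share of reads in this litter. They took 0.193% to 0.222% of the probe reads of each embryo in HET1 litter 1 (median 0.201%) and 0.0516% to 0.185% in litter 2 (median 0.102%), without overlap. Eif3g (chromosome 9, 20894349 to 20898623, reverse strand), for a subunit with an RNA-recognition motif, ran from 6.02 over 6.54 to 7.03 log2 RPM in litter 1 and from 1.86 over 2.90 to 5.68 in litter 2. Its ranges did not overlap, and it had the smallest p of all members (-3.40 ± 0.52, adjusted p = 5.47e-06). The reads behind these values were 35 to 114 in litter 1 and 0 to 27 in litter 2.

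Eif3l ran from 4.93 over 5.94 to 6.45 log2 RPM in litter 1 and from 1.86 over 3.31 to 4.94 in litter 2 (-2.55 ± 0.43, adjusted p = 2.29e-05), so that the ranges just met. Eif3e ran from 4.29 over 5.73 to 6.81 and from 1.86 over 3.79 to 5.83 (-2.08 ± 0.50, adjusted p = 0.00219). Eif3h ran from 6.88 over 7.20 to 7.86 and from 1.86 over 5.80 to 7.84 (-1.98 ± 0.50, adjusted p = 0.00346). Eif3d, whose product can bind the cap of some mRNAs, differed by -2.55 ± 0.57 (adjusted p = 0.000980), but 34.2% of its 75-base words lie in Gm17638 on the other strand. It had 3 to 36 reads in litter 1 and 0 to 4 in litter 2, near the detection floor of 3 reads. The differences for Eif3m, Eif3a and Eif3c were smaller, -1.42, -1.15 and -1.13. Among the other 6 genes for eIF3, Eif3k and Eif3f had differences of -1.24 and -1.23, Eif3b of -0.32, Eif3j1 of -0.13, Eif3j2 of -0.04 and Eif3i of 0.26, and none was called.

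**Figure D4:**
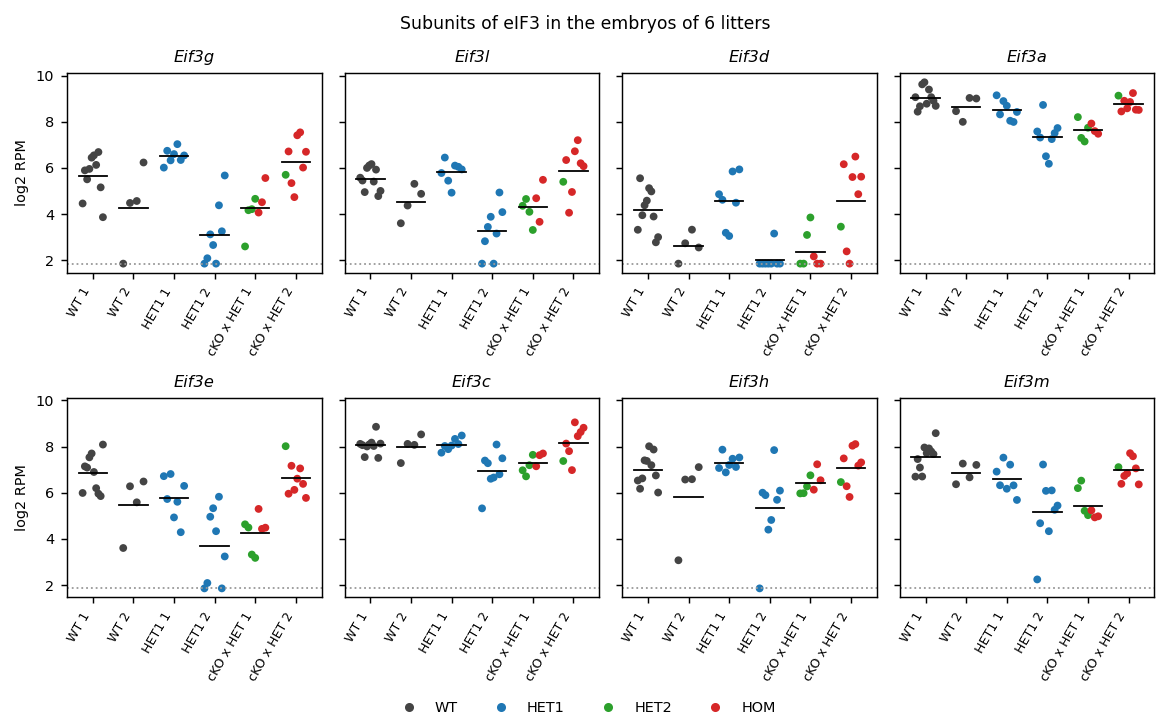
Levels in log2 RPM (y axis) of the 8 eIF3 subunit genes called lower in HET1 litter 2 than in HET1 litter 1, for each embryo of the 6 litters (x axis), coloured by group. Lines are litter means and the dotted line is the common floor of 1.86; for Eif3g the mean is 6.52 in HET1 litter 1 and 3.12 in HET1 litter 2.

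Outside eIF3, Eif5b ran from 7.36 over 7.88 to 8.69 log2 RPM in HET1 litter 1 and from 5.69 over 6.75 to 7.29 in litter 2, without overlap (-1.44 ± 0.24, adjusted p = 1.81e-05). Eif4h, for a cofactor of the helicase eIF4A, ran from 5.06 over 6.02 to 6.79 and from 2.01 over 4.34 to 4.89, also without overlap (-2.02 ± 0.42, adjusted p = 0.000455). Eif2b3, for the gamma subunit of eIF2B, differed by -2.19 ± 0.50 (adjusted p = 0.00119).

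Among the 5 tested genes of the eEF1 group, Eef1a1, Eef1g and Eef1e1 were lower in litter 2, while Eef1d (-0.88 ± 0.44) and Eef1b2 (0.12 ± 0.37) were not called. Eef1a1 differed by -1.05 ± 0.38 (adjusted p = 0.0382) and Eef2 by -1.29 ± 0.45 (adjusted p = 0.0311), with 7 of 8 embryos of litter 2 below the mean of litter 1 for Eef1a1 and 8 of 8 for Eef2. Of the words of Eef1a1, 26.6% recur in other genes. Eef1g, a subunit gene of the exchange factor for eEF1A, differed by -1.83 ± 0.54, and 38.0% of its 75-base words recur in other genes. It had 7 to 29 reads in litter 1 and 0 to 7 in litter 2, so that several values lie near the detection floor of 3 reads. Eef1akmt1, for an enzyme that methylates eEF1A, ran from 4.91 over 5.38 to 6.67 log2 RPM in litter 1 and from 1.86 over 3.20 to 5.73 in litter 2 (-2.39 ± 0.50, adjusted p = 0.000506). The single member called higher was Eef2k, for the kinase that inactivates eEF2. It ran from 3.02 over 4.61 to 6.00 in litter 1 and from 4.65 over 6.91 to 7.78 in litter 2 (1.90 ± 0.57, adjusted p = 0.0135), with 7 of 8 embryos above the mean of litter 1. Eef2k, Eef1akmt4, Eif2s2, Eif3m and Eif6 overlap other annotated genes, and without strand their reads cannot be told apart where these lie on the opposite strand.

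The cKO x HET litters, compared with genotype in the model, differed with the opposite sign. Litter numbers name no shared batch, so that the sign across mating types follows from the numbering alone. In litter 2, 8 of 64 members were higher than in litter 1 and 0 were lower, against 5.15% of all genes called, 2.17% higher and 2.98% lower. With embryos centred on their median the calls were 12 higher and 2 lower, against 7.23% of all genes called. An unadjusted p under 0.05 was found for 19 members, against 22.7% of all genes. The median difference was 0.45 log2 RPM over the members and 0.00 over all genes, and all 14 genes for eIF3 subunits had a positive difference. Eef1akmt1 (chromosome 14, 57549597 to 57571612, reverse strand) ran from 1.86 over 3.52 to 4.25 log2 RPM in litter 1 and from 4.38 over 6.63 to 6.93 in litter 2, without overlap (3.08 ± 0.56, adjusted p = 0.00744). Eif3e ran from 3.18 over 4.49 to 5.30 and from 5.78 over 6.50 to 8.01 (2.36 ± 0.44, adjusted p = 0.00871). Eif3a ran from 7.15 over 7.60 to 8.20 and from 8.45 over 8.72 to 9.24 (1.19 ± 0.21, adjusted p = 0.00730), and again the litters did not overlap.

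The other members called higher were Eif3m (1.75 ± 0.32), Eif2s1 (1.12 ± 0.21), Eif5b (1.02 ± 0.20), Eif2b3 (2.11 ± 0.50) and Eef1e1 (1.48 ± 0.38), the last for a protein of the tRNA synthetase complex named after eEF1. For each of them all 8 embryos of litter 2 lay above the mean of litter 1. Of 8 alternative fits, 6 called Eef1e1 and 7 called Eif2b3, while Eif3m, Eif2s1 and Eif5b were called in all 8. The means of HET2 and of HOM embryos were both higher in litter 2. In litter 1, Eif3m stood at a mean of 5.74 ± 0.73 in 4 HET2 embryos and 5.05 ± 0.16 in 3 HOM embryos, and in litter 2 at 7.11 in 1 HET2 embryo and 6.95 ± 0.53 in 7 HOM embryos.

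The 2 litter comparisons share no embryo, and their members can be set side by side. Whether their signs are alike or opposite depends on how the litters were numbered. All 8 members called between the cKO x HET litters were among the 22 called between the HET1 litters, with the opposite sign, so that 8 of 8 in the former list and 8 of 22 in the latter were shared. Over all genes, 458 were called in both, of 687 and 2920. Of the 64 members, 45 had a lower mean in HET1 litter 2 and a positive difference between the cKO x HET litters, against 5505 of 13338 genes. The differences had a Pearson r of -0.73 and a Spearman rho of -0.69 across the members, and of -0.72 and -0.68 across all 13338 genes tested. These are correlations across genes measured in the same libraries, and the members were near the value for all genes.

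**Figure D5:**
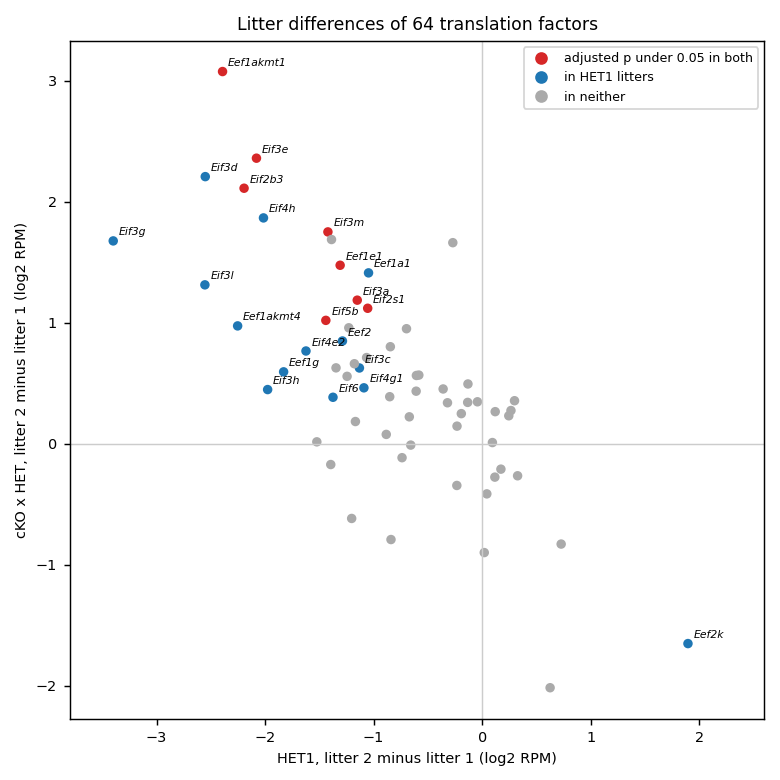
Difference between litters (litter 2 minus litter 1, log2 RPM) of the 64 translation factors tested, in HET1 embryos (x axis) and in cKO x HET embryos (y axis). Red points were called in both comparisons, blue points in the HET1 litters alone; 45 of 64 points lie in the upper left quadrant.

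Other markers moved with these litters. In HET1 litter 2, where members were low, 4 of 6 two-cell markers and 3 of 10 oocyte markers were higher than in litter 1 and 0 were lower. Of the 3 tested blastocyst markers Gata4 was lower (-1.60 ± 0.51, adjusted p = 0.0193), and the 6 summed to 60.3 to 197.3 RPM in litter 1 and 2.1 to 92.8 in litter 2. In cKO x HET litter 2, where members were high, 2 and 3 of them were lower and 0 were higher. The 10 oocyte markers summed to 1559 to 5874 RPM in HET1 litter 1, 7751 to 14001 in HET1 litter 2, 7399 to 9043 in cKO x HET litter 1 and 1453 to 4540 in cKO x HET litter 2. The 6 two-cell markers summed to medians of 566, 984, 667 and 483 RPM in the same litters. In WT litters 1 and 2 their medians were 419 and 400 RPM. Oosp1, for a protein secreted by the oocyte, differed by 2.70 ± 0.34 log2 RPM between the HET1 litters and by -2.11 ± 0.33 between the cKO x HET litters. In the WT litters the oocyte markers summed to medians of 2817 and 5274 RPM, with no marker called, and the eIF3 genes took medians of 0.251% and 0.166% of the probe reads. In each pair, the litter with the lower eIF3 share had the higher sum of oocyte markers, and the part of this in the results was not tested. The sum depends mostly on Omt2b, with a mean of 12.88 log2 RPM in HET1 litter 2, against 10.01 for Oosp1 and 9.56 for Bmp15. Not every oocyte marker followed it. Between the HET1 litters Zp3, Zp2 and Nlrp5 had negative differences, and between the cKO x HET litters Zp3 had a positive one (0.62). None of these was called, and the remaining oocyte markers had the sign of the sum in both comparisons. Median depth was 663861 reads in HET1 litter 1 and 524828 in litter 2, and 1108889 and 747523 in the cKO x HET litters, and its part was not tested.

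Other genes of translation moved in the same comparisons. Of 35 genes for termination, recycling and regulators, 16 were lower and 2 higher in HET1 litter 2, against 15.4% and 6.46% of all genes, with a median difference of -0.77 log2 RPM. The 2 that were higher were Paip1 (1.50 ± 0.25) and Ddx3x (1.16 ± 0.25), and Abce1, which splits ribosomes after termination, had the smallest p (-3.95 ± 0.46, adjusted p = 2.74e-08); these 3 were named after their values were seen. Of 21 tested aminoacyl-tRNA synthetase genes 9 were lower and 0 higher (median -1.05), of 8 mitochondrial translation factor genes 4 and 0 (median -1.03), and of 80 cytoplasmic ribosomal protein genes 31 and 0 (median -0.96). Between the cKO x HET litters, 2 termination and regulator genes (Abce1, 2.99 ± 0.63, and Dph1, 1.99 ± 0.47), 0 synthetases, 0 mitochondrial factors and 8 ribosomal protein genes were higher (2.17% of all genes), with medians of 0.19, 0.50, 0.33 and 1.07.

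In HET1 against WT, 3 termination and regulator genes were lower (Paip2, -1.48 ± 0.30, Etf1, -0.80 ± 0.19, and Abce1, -1.98 ± 0.58), as were the synthetase gene Eprs (-1.13 ± 0.35) and 7 of 80 ribosomal protein genes, of which 2 more were higher, against 2.83% of all genes lower and 3.67% higher. None of these calls remained with litter as a random term or with litter means. No mitochondrial factor was called. None of the genes of these lists was called in HOM or HET2 against WT or between HOM and HET2, and between the WT litters only Tpt1 was (1.23 ± 0.31). The medians of the ribosomal protein genes in HOM and HET2 against WT were 0.41 and -0.66 log2 RPM.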

How the data were processed

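Embryos at the two-cell stage were collected from natural matings, the mRNA of each was captured with oligo-dT and amplified by Smart-seq2, and Nextera XT libraries were sequenced. Per the submitters' processing notes and the study's methods, the authors trimmed reads with Trim Galore 0.6.5 and cutadapt 2.3, aligned them to GRCm38 with HISAT2 2.1.0, kept alignments of mapping quality 20 or more, and used the RNA-seq pipeline of SeqMonk, not set to separate strands, to count reads over mRNA probes. As deposited, each embryo has a column of log2 RPM. A gene without reads was deposited at the value of 0.9 reads, which fell to -1.81 in the deepest embryo. Reads were recovered from the values, and 99.9997% of them came out whole within 0.05 reads. Probe reads were 67.9% to 84.8% of the total. The mapping filter drops reads that fit several places, and the quantification cannot separate overlapping genes on opposite strands.

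Values under 1.86 were set to 1.86, and genes above it in at least 5 of 44 embryos were tested (13338 of 35269). Differences were tested on the log2 scale with limma 3.58.1 (lmFit and eBayes with a trend, R 4.3.3), two-sided, with Benjamini-Hochberg adjustment over all genes tested. Since the deposited values are not counts, no count model was the main test, and limma voom on the recovered reads was an alternative. Each comparison between groups used the 4 groups in 1 fit, and the HOM and HET2 littermates were compared with litter in the model. The WT and HET1 litters were compared in a fit of all embryos with a mean for each group and litter, and the cKO x HET litters among their 15 embryos with genotype in the model. Tables and figures were made with Python 3.11.15, pandas 2.3.3 and matplotlib 3.10.9. The fit was tested on simulated data with known changes.

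The members and gene lists were chosen with earlier results of these data known. Named were the 12 members with the highest mean, the related gene pairs, the binding proteins and eIF2 kinases, and in each comparison the 12 members of smallest p among those called, or the 3 of smallest p where fewer than 3 were called. Other members stand in the text to complete a role, and were chosen after their values were seen. The embryos are labelled as separate samples, no 2 columns were identical, and pairs within a group differed beyond counting noise (chi-square per degree of freedom of at least 4.59). P-values measure the spread between embryos, which share litters. The floor of 3 reads takes account of counting error alone: the libraries carry no molecular identifiers, and several reads can stem from 1 molecule. Alternatives changed the floor, the filter on low values, the scaling, embryo weights, the treatment of litter, and the embryos or litters included.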

Additional observations from a re-analysis of the deposited data

Results flagged for a closer look

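Within the groups of 5 HET2 and 10 HOM embryos, 6 of 101 sets of values over 52 named members had a highest embryo that stood apart by Dixon's 95% limit, where chance flags about 1 in 20. Eif5b stood at 8.83 log2 RPM (783 reads) in HET2 embryo 5, the single HET2 embryo of litter 2, and between 6.98 and 7.26 in the others. Eif2ak1 stood at 6.96 (87 reads) in HET2 embryo 3 and between 5.26 and 5.68 in the others, and Eif4ebp1 in the same embryo at 2.84 with 5 reads, against 1.86 to 1.91. Eif2ak2 stood at 3.43 (23 reads) in HET2 embryo 1, against 1.86 to 2.1, and at 4.47 (54 reads) in HOM embryo 1, against 1.86 to 2.73. Eif4ebp3 stood at 2.05 in HOM embryo 3 with 5 reads and at the floor of 1.86 in all others. Values set to the floor are equal, so that any embryo above them is readily flagged. This holds for Eif4ebp3 and largely for Eif2ak2 and Eif4ebp1, and the rate of 1 in 20 does not apply to such sets. The groups of 14 WT and 15 HET1 embryos are too large for this test.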

How the results depend on the processing

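Shares in brackets are of all genes tested in the same fit. Of 93 alternative counts of members called, 76 stayed within 1.5 times the main count. Most of the 76 belong to comparisons with a main count of 0 that remained at 0, so this figure does not show how stable the calls were. Leaving out WT litter 1 gave 1 call in HOM against WT (Eif3i, 2.05 log2 RPM, limma adjusted p = 0.0465, 0.990%). It also gave 1 in HET1 against WT (Eif3i, 2.16, 1.02%). In HET1 against WT, litter as a random term, litter means, leaving out HET1 litter 2, and leaving out HET1 litter 2 with WT litter 2 (chosen after seeing the data) each gave 0, leaving out HET1 litter 1 gave 23 (4 higher, 19 lower; 19.2%), and leaving out embryos under 500000 reads gave 5 (Eif5, Eif2s2, Eif3e, Eif3m and Eif5b, all lower; 307 of 13338 genes). That last setting gave 14 (9.54%) between the HET1 litters, of which 13 were among the 22 called with all embryos. Between the WT litters, values without the common floor gave 1 (Eif5a2; 2.02%), voom gave 4 (Eif4g2, Eef1b2, Eif5a2 and Eif4e; 5.05%), and leaving out single embryos of litter 2 gave 0 to 5 (5 without WT embryo 14, 4.07%, and 3 without WT embryo 13, 3.03%). Between the cKO x HET litters, values without the common floor gave 13 (8.04%), and a mean of at least 3 log2 RPM (58 members tested; 14.5%), centring on the median (7.23%) and array weights (10.5%) gave 14 each. Leaving out embryos under 500000 reads gave 6 between these litters (2.65%), all among the 8 called with all embryos. In HET2 against WT, leaving out HET2 litter 1 turned Eif3a to 0.21 and Eif3e to 1.56, and leaving out single HET2 embryos gave 0 calls each time. Of 518 alternative values of named differences, 431 kept their direction and side of the threshold, 78 lost the threshold, 7 gained it and 2 reversed.

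The litter numbers are shared across mating types but name no shared batch. The litter differences of the numbered pairs correlated across genes at 0.40 (WT and HET1), -0.26 (WT and HET2), -0.38 (WT and HOM), -0.52 (HET1 and HET2) and -0.70 (HET1 and HOM). With the mating number as a replicate block, 12 members were called in HET1 against WT (5.59%), including all 11 called without it, and 0 in HOM or HET2 against WT. HOM against HET2 without the litter block also gave 0. Of 68 members, 4 exceeded the floor of 1.86 in fewer than 5 embryos and were not tested. The cause of these changes was not tested.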
